A study of Mus musculus with 9 samples.

Results

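Complex I genes were followed in E0771, a cell line from a mouse mammary tumour, after suppression of pyruvate carboxylase by short hairpin RNAs. They were taken as every probe set of the array whose gene symbol begins with Nduf, which gave 46 genes with 1 probe set each among 22206 probe sets, 19572 of them with a gene symbol. Of the 46 genes, 38 encode subunits of the complex or proteins named after them, and 8 carry the prefix Ndufaf and encode assembly factors, proteins that help to build the complex without being part of it. The study compared 3 arrays for the scramble control (scram) with 3 for shPC25 and 3 for shPC28, hairpins directed against Pcx, the gene of pyruvate carboxylase (PC). All 3 groups had been transduced with a lentivirus carrying the vector pLKO.1 and selected with puromycin, per the study's methods, which do not say that clones were picked. No treatment was given to any group. The DMEM of all cells held 10% FBS, 4 mM glutamine and 5.6 mM glucose, which the study calls low. Nothing in the labels tells whether replicate arrays stand for separate cultures, and p-values therefore cover the spread between arrays alone, which may be technical.

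Complex I, NADH dehydrogenase, is the entry point of the mitochondrial respiratory chain. It takes electrons from NADH, passes them along a chain of iron-sulphur clusters to ubiquinone, and pumps protons across the inner membrane. Its subunits fall into an N module that oxidises NADH, a Q module that reduces ubiquinone, and a membrane arm with a proximal and a distal part. Some subunits form the catalytic core, which is shared with bacteria, and the accessory subunits surround it. Several core subunits of the membrane arm are encoded by mitochondrial DNA, and these were not analysed here.

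Signal is given on a log2 scale, so that a step of 1 stands for a doubling, and signals of different genes cannot be set against each other because each has its own probes. The median of all probe sets lay between 4.88 and 5.04 on the 9 arrays. Across probe sets, arrays of 1 group correlated at 0.995 to 0.998 and arrays of different groups at 0.979 to 0.993. Pcx read 9.18, 8.84 and 9.20 in scram, 5.64, 5.43 and 5.53 with shPC25, and 7.01, 6.85 and 6.57 with shPC28. The target was lower on every array of both hairpins than in scram, and lower with shPC25 than with shPC28 (difference 1.28 ± 0.15 log2, SE, limma adjusted p = 0.000307). The epithelial marker genes averaged 13.7 (the keratin Krt8), 7.49 (Epcam), 4.89 (Cdh1), 4.85 (Krt14), 3.75 (Krt18) and 2.54 (Krt5) in scram. The mesenchymal marker genes averaged 17.2 (the filament gene Vim), 13.8 (Zeb1), 13.1 (S100a4), 3.21 (Cdh2) and 2.31 (Fn1). Both lists were thus mixed. The median signal of the macrophage, lymphocyte, fibroblast and endothelial marker lists stayed between 2.82 and 4.10 on all arrays, with 13 of their 15 genes below the array median.

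Most subunit genes were called higher with shPC28, and fewer of them with shPC25. With shPC28, 34 of 38 subunits rose and 0 fell, with a median log2 change of 0.76, against a median of 0.10 over all probe sets. With shPC25, 15 of 38 rose and 0 fell, with a median of 0.30 against 0.04. The assembly factors were divided. With shPC28, 5 of 8 rose and 2 fell, Ndufaf1 and Ndufaf7. The 5 that rose were 62.5% of the class, against 21.2% of all probe sets called higher. The 2 that fell were 25% of the class, close to the 20.5% of all probe sets called lower. In the main fit 0 subunits were called lower in any of the 3 comparisons. The subunit Ndufs1 passed as lower with shPC28 in some alternative analyses. Calls were made at an adjusted p under 0.05 in limma, with p-values adjusted over all 22206 probe sets. Since the RNA came from bulk cultures, a change in every cell and a larger change in some of the cells cannot be told apart.

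These counts were read against the array as a whole. With shPC28 against scram, 21.2% of all probe sets were called higher and 20.5% lower, while 89.5% of the subunits were called higher. With shPC25 against scram, 9.19% of all probe sets were called higher and 11.3% lower, and 39.5% of the subunits were called higher. The 3 arrays of shPC28 lay above all scram arrays for 35 of the 38 subunits, as they did for 27.5% of all probe sets. For shPC25 the same held for 25 of the 38, against 20.2% of all probe sets. Subunit probe sets were brighter than most, with a median of 12.8 in scram. Among the 6688 probe sets with a mean of at least 10, the share called higher was 38.4% with shPC28 and 20.3% with shPC25, and the median change of the 33 subunits in that range was 0.73 and 0.30. Both comparisons used the same scram arrays.

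**Figure D1:**
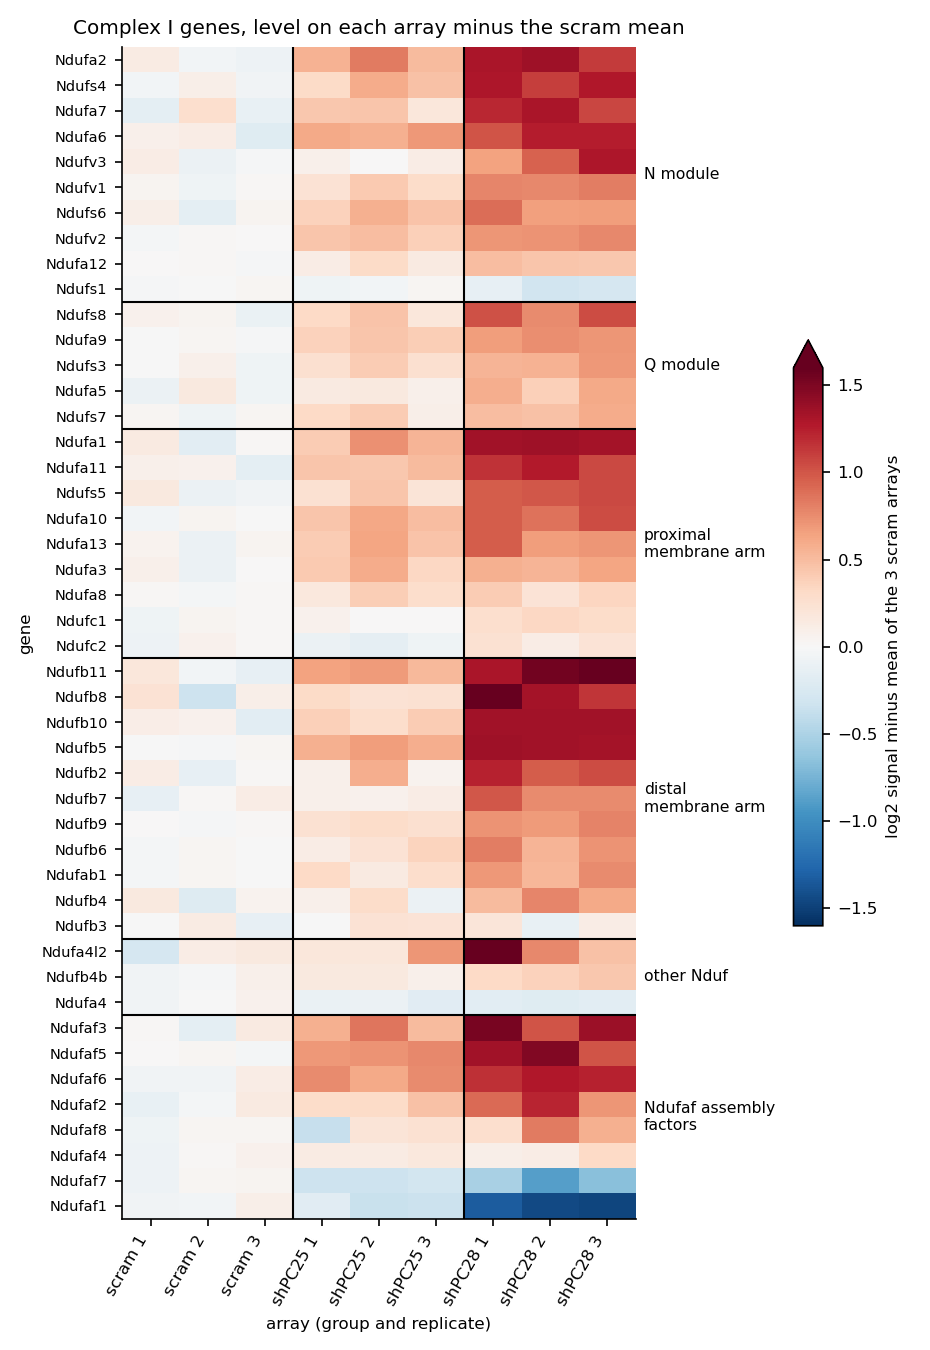
Signal of each of the 46 complex I genes (rows, grouped by place in the complex and ordered by the change with shPC28) on each of the 9 arrays (columns), minus the mean of the 3 scram arrays, on a log2 colour scale that ends at 1.6, beyond which the darkest red is used. Subunit rows are mostly red with shPC28 and paler red with shPC25, while Ndufs1 and Ndufa4 are pale blue and Ndufaf1 and Ndufaf7 are blue.

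The start regions of the genes were read for short motifs of factors known to act on nuclear genes of the respiratory chain. RefSeq windows (GRCm38.p6) from 250 bases before to 50 after the transcription start were on hand for 41 of the 46 genes. The motifs were CCGGAAG for ETS factors such as GABP, GCATGCGC for NRF1 and AAGATGGC for YY1, each searched on both strands. The YY1 letters stood in 8 of the 41 windows (19.5%), against 3.64% of the 15691 genes of the array with a window, the NRF1 letters in 5 (12.2% against 4.10%) and the ETS letters in 6 (14.6% against 13.2%). These shares are descriptions, without a test, and a match of letters does not show that a factor binds there. All 8 genes with the YY1 letters were called higher with shPC28, as were 4 of the 5 with the NRF1 letters and 5 of the 6 with the ETS letters, while 39 of all 46 complex I genes (84.8%) were called higher. In all 8 genes the YY1 letters lay on the sense strand, between 11 and 39 bases after the start. The letters include ATG, and whether this was the start codon was not looked up. The following 4 of the 8 sites are shown with the YY1 letters in capitals, from N module subunits, a membrane arm subunit and an assembly factor. The capitals are alike because they were the letters searched for, and the bases before them differ.
Ndufs4, chr13:114388048-114388069, minus strand: tgcctacaggAAGATGGCggcg
Ndufs6, chr13:73328438-73328459, minus strand: ggtcaccggcAAGATGGCggcg
Ndufb8, chr19:44555393-44555414, minus strand: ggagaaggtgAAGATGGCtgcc
Ndufaf8, chr11:120098934-120098955, plus strand: ggcagggcccAAGATGGCggcg

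A shared motif went with different changes. Ndufaf1, which fell with shPC28, and Ndufb7, a distal membrane arm subunit that rose, both held the ETS letters on the sense strand close to the start, beginning 18 bases before it in Ndufaf1 and 20 in Ndufb7. Ndufa11, a proximal membrane arm subunit that rose, and Ndufaf4, an assembly factor that was not called, both held GCGCATGCGC, in which the NRF1 letters stand on both strands and overlap. The 150 bases before each start are shown with these letters in capitals, so that the pairs can be compared.
Ndufaf1, chr2:119662835-119662984, minus strand: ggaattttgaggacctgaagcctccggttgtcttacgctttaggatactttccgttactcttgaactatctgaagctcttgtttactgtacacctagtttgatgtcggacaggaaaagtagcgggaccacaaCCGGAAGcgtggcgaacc
Ndufb7, chr8:83566608-83566757, plus strand: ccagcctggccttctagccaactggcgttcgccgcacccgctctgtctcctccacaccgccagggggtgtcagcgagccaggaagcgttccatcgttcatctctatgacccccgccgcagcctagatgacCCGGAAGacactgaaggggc
Ndufa11, chr17:56717612-56717761, plus strand: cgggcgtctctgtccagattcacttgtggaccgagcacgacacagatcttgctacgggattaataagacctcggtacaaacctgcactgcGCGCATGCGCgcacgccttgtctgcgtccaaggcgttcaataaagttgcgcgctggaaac
Ndufaf4, chr4:24897933-24898082, plus strand: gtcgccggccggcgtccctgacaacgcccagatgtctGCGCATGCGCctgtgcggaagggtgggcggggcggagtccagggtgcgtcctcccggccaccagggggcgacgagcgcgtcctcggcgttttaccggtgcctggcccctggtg

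The catalytic core was measured first, through 6 of its nuclear genes. With shPC28, 5 of the 6 rose and 1, Ndufs1, was not called; with shPC25, 2 rose. Ndufv1, which binds NADH and the flavin that accepts its electrons, read 13.80, 13.69 and 13.78 in scram, 13.99, 14.17 and 14.05 with shPC25, and 14.54, 14.53 and 14.58 with shPC28. The 3 groups did not overlap and lay in the order scram, shPC25, shPC28. The change was 0.31 ± 0.09 with shPC25 (SE, limma adjusted p = 0.0384) and 0.79 ± 0.09 with shPC28 (adjusted p = 0.000103). The call with shPC25 was lost when any of 8 of the 9 arrays was left out, with adjusted p of up to 0.123.

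Ndufv2, an iron-sulphur protein beside Ndufv1, read 14.01, 14.06 and 14.05 in scram, 14.48, 14.53 and 14.42 with shPC25, and 14.75, 14.76 and 14.81 with shPC28. It followed the same order without overlap, with changes of 0.44 ± 0.08 (limma adjusted p = 0.00665) and 0.73 ± 0.08 (adjusted p = 0.000103). Ndufs1, the large subunit that carries iron-sulphur clusters onward from Ndufv1, read 13.81, 13.83 and 13.86 in scram, 13.77, 13.79 and 13.86 with shPC25, and 13.70, 13.53 and 13.57 with shPC28. It was the one core gene whose shPC28 arrays all lay below scram. The change was -0.23 with shPC28 (95% interval -0.43 to -0.03, limma adjusted p = 0.0621) and -0.03 with shPC25 (adjusted p = 0.872). The Ndufs1 change with shPC28 passed the threshold as lower with both filters on dim probe sets, quantile normalization, centring on olfactory receptor probe sets, a mean-variance trend or no moderation, with adjusted p of 0.00427 to 0.0446.

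The core genes of the Q module rose with shPC28 and were not called with shPC25. Ndufs3 read 13.81, 13.90 and 13.75 in scram, 14.08, 14.22 and 14.08 with shPC25, and 14.37, 14.38 and 14.52 with shPC28, a change of 0.60 ± 0.10 with shPC28 (limma adjusted p = 0.000793) and 0.31 ± 0.10 with shPC25 (adjusted p = 0.052). Ndufs7, which holds the last cluster before ubiquinone, read 12.31, 12.22 and 12.32 in scram, 12.60, 12.69 and 12.38 with shPC25, and 12.78, 12.75 and 12.88 with shPC28, a change of 0.52 ± 0.11 with shPC28 (limma adjusted p = 0.00348). Ndufs8, another iron-sulphur protein, read 13.34, 13.32 and 13.17 in scram, 13.60, 13.73 and 13.46 with shPC25, and 14.30, 14.03 and 14.32 with shPC28, a change of 0.94 ± 0.12 (limma adjusted p = 0.000202). In all 3 genes the groups did not overlap, and shPC25 lay between scram and shPC28. The shPC25 differences of all 3 passed as higher in some alternative analyses. These were the filter on the dimmest 50% of probe sets, centring on array medians and a mean-variance trend, with limma adjusted p of 0.00121 to 0.0367. That of Ndufs3 also passed with the filter on the dimmest 25%, with array weights and without moderation.

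By place in the complex, 9 of 10 N module genes rose with shPC28 (median change 0.88), 5 of 5 Q module genes (0.60), 8 of 9 genes of the proximal membrane arm (0.78) and 10 of 11 of the distal membrane arm (0.83). With shPC25 the counts were 6 of 10, 1 of 5, 5 of 9 and 3 of 11, with 0 lower in each. Of all probe sets, 21.2% were called higher with shPC28 and 9.19% with shPC25. Of those with a mean of at least 10, the shares were 38.4% and 20.3%. The Q module (20%) and the distal arm (27.3%) with shPC25 lay near the last of these. The distal arm thus held 10 genes called with shPC28 and 3 called with shPC25. The groups of subunits were not tested against each other.

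The 5 largest changes among subunits with shPC28 were in accessory genes of the membrane arm, 4 of them distal. Ndufb11 read 8.97, 8.74 and 8.66 in scram, 9.43, 9.47 and 9.31 with shPC25, and 10.09, 10.33 and 10.45 with shPC28. The groups stood apart without overlap, and the signal was 2.83-fold higher with shPC28 than in scram (1.50 ± 0.13 log2, limma adjusted p = 1.86e-05) and 1.53-fold higher with shPC25 (0.61 ± 0.13 log2, adjusted p = 0.00997). Ndufb8 read 8.62, 8.06 and 8.49 in scram, 8.70, 8.62 and 8.63 with shPC25, and 10.21, 9.72 and 9.54 with shPC28. Its shPC25 arrays overlapped with scram, and it was called with shPC28 (1.43 ± 0.19, limma adjusted p = 0.0003) but not with shPC25 (0.26 ± 0.19, adjusted p = 0.404).

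Ndufb5 read 11.62, 11.60 and 11.65 in scram, 12.19, 12.29 and 12.21 with shPC25, and 12.98, 12.97 and 12.96 with shPC28. Its arrays agreed within 0.10 log2 in each group, and it rose with both hairpins, by 0.61 ± 0.08 (limma adjusted p = 0.00134) and 1.35 ± 0.08 (adjusted p = 2.93e-06). Ndufb10 read 9.95, 9.91 and 9.67 in scram, 10.22, 10.13 and 10.25 with shPC25, and 11.19 on each shPC28 array, a rise of 1.35 ± 0.10 with shPC28 (limma adjusted p = 9.63e-06). Ndufa1, of the proximal arm and X-linked in mouse, read 10.12, 9.80 and 9.99 in scram, 10.38, 10.70 and 10.52 with shPC25, and 11.32, 11.33 and 11.30 with shPC28, a rise of 1.35 ± 0.12 (limma adjusted p = 2.28e-05). In both genes the groups did not overlap, and the smaller rises with shPC25 were called as well (0.36 and 0.56, adjusted p = 0.0368 and 0.0105). The shPC25 call of Ndufb10 was lost when any of 6 of the 9 arrays was left out, with adjusted p of up to 0.121.

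The rest of the subunits called with shPC28 rose by 0.30 to 1.26 log2. In the N module, Ndufa2 (1.26 ± 0.12), Ndufs4 (1.23 ± 0.11), Ndufa7 (1.19 ± 0.14) and Ndufa6 (1.17 ± 0.12) rose more than 2-fold, and of these Ndufa2, Ndufs4 and Ndufa6 also rose with shPC25, by 0.63, 0.46 and 0.63. The shPC25 call of Ndufs4 was lost without scram replicate 1 or 3 or shPC25 replicate 2 or 3, with adjusted p of up to 0.063. Ndufs4, whose loss in mice gives a model of Leigh syndrome, read between 10.79 and 10.93 in scram, 11.15 and 11.43 with shPC25, and 11.95 and 12.13 with shPC28. Ndufab1, the mitochondrial acyl carrier protein, which also serves lipoic acid synthesis, rose by 0.66 ± 0.10 with shPC28 (limma adjusted p = 0.000558) and was not called with shPC25 (0.25 ± 0.10, adjusted p = 0.117). In all, 13 of the 38 subunits, Ndufa4l2 included, were at least 2-fold higher with shPC28 and 0 with shPC25. Among the called genes Ndufb4 (0.63 ± 0.14) and Ndufb4b (0.37 ± 0.09) have near-identical sequences, so their signals are uncertain as separate measurements.

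Besides Ndufs1, 3 subunits were not called with shPC28. Ndufa4, which is now placed in cytochrome c oxidase rather than complex I, read 15.29, 15.34 and 15.42 in scram, 15.24, 15.26 and 15.17 with shPC25, and 15.18, 15.15 and 15.18 with shPC28. Both hairpin groups lay below scram without overlap, by 0.13 and 0.18 log2, and neither difference passed the test (limma adjusted p = 0.349 and 0.124); the shPC28 difference passed as lower in 5 of the alternative analyses that kept all arrays, with adjusted p of 0.00556 to 0.0377. Ndufb3, a distal subunit, read 11.26, 11.40 and 11.14 in scram, 11.26, 11.50 and 11.48 with shPC25, and 11.46, 11.15 and 11.39 with shPC28. All 3 groups overlapped, and the interval of its change with shPC28 was -0.21 to 0.35, which does not reach the median change of the subunits. Ndufc2, a proximal subunit, read 15.48, 15.62 and 15.57 in scram, 15.46, 15.41 and 15.49 with shPC25, and 15.80, 15.68 and 15.77 with shPC28, so that only shPC28 lay above scram (0.19 ± 0.09, limma adjusted p = 0.113). The rise of Ndufc2 passed with the filter on the dimmest 50% of probe sets, centring on array medians, a mean-variance trend or no moderation. Adjusted p was then 0.00326 to 0.0315.

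The smallest called rise with shPC28 was that of Ndufc1, the partner of Ndufc2, which read 14.01, 14.12 and 14.09 in scram, 14.14, 14.08 and 14.08 with shPC25, and 14.34, 14.40 and 14.37 with shPC28. Its shPC25 arrays overlapped with scram, and the change was 0.30 ± 0.08 with shPC28 (limma adjusted p = 0.0188, and 0.061 without scram replicate 1). The Ndufc1 call was also lost with the replicate block (limma adjusted p = 0.062). With olfactory centring its change was 0.10 (adjusted p = 0.443). The call of Ndufa8 (0.32) was lost when any of 5 arrays was left out, with adjusted p of up to 0.0758. It was also lost with quantile normalization, olfactory centring and the replicate block. Ndufa4l2, a paralog of Ndufa4 known as a target of hypoxia-inducible factor, was the dimmest subunit gene, at 4.94, 5.33 and 5.37 in scram, 5.39, 5.39 and 5.92 with shPC25, and 7.01, 5.98 and 5.68 with shPC28. Its shPC28 arrays spread over more than 1 log2 unit, and the rise of 1.01 ± 0.32 (limma adjusted p = 0.0312) lost its call when shPC28 replicate 1 or any scram array was left out, with adjusted p of up to 0.103. Without shPC28 replicate 1 the change of Ndufa4l2 was 0.62.

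The assembly factors were described gene by gene, since they did not move together. Their roles are known mainly from human cells. Ndufaf1, part of the assembly complex that builds a portion of the membrane arm, read 10.90, 10.91 and 11.05 in scram, 10.77, 10.60 and 10.61 with shPC25, and 9.62, 9.51 and 9.49 with shPC28. The groups stood apart in descending order, which is the reverse of the order seen in most subunits. Ndufaf1 was 2.66-fold lower with shPC28 (-1.41 ± 0.10 log2, limma adjusted p = 5.6e-06), while the difference with shPC25 was -0.29 ± 0.10 (adjusted p = 0.0637). The latter passed as lower under both filters on dim probe sets, under centring on olfactory receptor probe sets, with array weights and without moderation.

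Ndufaf7, a methyltransferase needed for assembly of the complex, read 10.87, 10.99 and 11.00 in scram, 10.62, 10.62 and 10.66 with shPC25, and 10.44, 10.07 and 10.28 with shPC28. It too descended from scram to shPC25 to shPC28 without overlap, and the fall was called with shPC28 (-0.69 ± 0.11, 1.61-fold lower, limma adjusted p = 0.000866) and not with shPC25 (-0.32 ± 0.11, adjusted p = 0.0749). The shPC25 difference passed as lower with the filter on the dimmest 50% of probe sets, olfactory centring, a mean-variance trend or array weights. It also passed when only the 2 groups were compared and without shPC28 replicate 2. Adjusted p in these analyses was 0.0251 to 0.0499. The falls of Ndufaf1 and Ndufaf7 with shPC28 were called under all alternative settings tried. With shPC28, 2 of 8 assembly factors (25%) and 0 of 38 subunits were called lower. The share of the assembly factors was close to the 20.5% of all probe sets given above.

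Ndufaf3 and Ndufaf4 bind each other and an early form of the Q module, and they did not change alike. Ndufaf3 read 8.40, 8.22 and 8.52 in scram, 8.95, 9.24 and 8.89 with shPC25, and 9.90, 9.38 and 9.75 with shPC28, and rose with both hairpins (0.65 ± 0.16, limma adjusted p = 0.0213, and 1.30 ± 0.16, adjusted p = 0.000173). Ndufaf4 read 13.57, 13.67 and 13.73 in scram, 13.79, 13.79 and 13.82 with shPC25, and 13.75, 13.78 and 13.98 with shPC28. Both hairpin groups lay just above scram, and the change of Ndufaf4 with shPC28 was 0.18 (95% interval -0.04 to 0.40, limma adjusted p = 0.177). The change of Ndufaf4 passed as higher with centring on array medians (adjusted p = 0.0498) and a mean-variance trend (adjusted p = 0.044). The shPC25 call of Ndufaf3 was lost without scram replicate 1, scram replicate 2 or shPC25 replicate 2, with adjusted p of up to 0.0791.

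Ndufaf5, which hydroxylates an arginine of Ndufs7, read 9.40, 9.43 and 9.36 in scram, 10.09, 10.11 and 10.16 with shPC25, and 10.74, 10.88 and 10.40 with shPC28. It rose without overlap by 0.72 ± 0.13 with shPC25 (limma adjusted p = 0.00437) and 1.28 ± 0.13 with shPC28 (adjusted p = 4.43e-05). Ndufaf8, which stabilises Ndufaf5, read 6.51, 6.61 and 6.60 in scram, 6.21, 6.78 and 6.82 with shPC25, and 6.84, 7.40 and 7.14 with shPC28. It was the dimmest assembly factor, its shPC25 arrays overlapped with scram, and its rise with shPC28 (0.55 ± 0.19, limma adjusted p = 0.0431) was lost when any of 6 arrays was left out, with adjusted p of up to 0.132.

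Ndufaf6, required for an early step of assembly, read 10.34, 10.34 and 10.51 in scram, 11.15, 11.00 and 11.15 with shPC25, and 11.57, 11.68 and 11.63 with shPC28. It had the smallest adjusted p of the assembly factors that rose, with changes of 0.70 ± 0.10 (limma adjusted p = 0.00141) and 1.23 ± 0.10 (adjusted p = 1.17e-05). Ndufaf2, a paralog of the N module subunit Ndufa12 that acts late in assembly, read 8.78, 8.87 and 9.04 in scram, 9.19, 9.20 and 9.36 with shPC25, and 9.80, 10.11 and 9.60 with shPC28. Its groups did not overlap, and the rise was called with shPC28 (0.94 ± 0.14, limma adjusted p = 0.0006) and not with shPC25 (0.35 ± 0.14, adjusted p = 0.119). Its relative Ndufa12, among the brightest subunits, rose by 0.46 ± 0.09 with shPC28 (limma adjusted p = 0.00269).

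**Figure D2:**
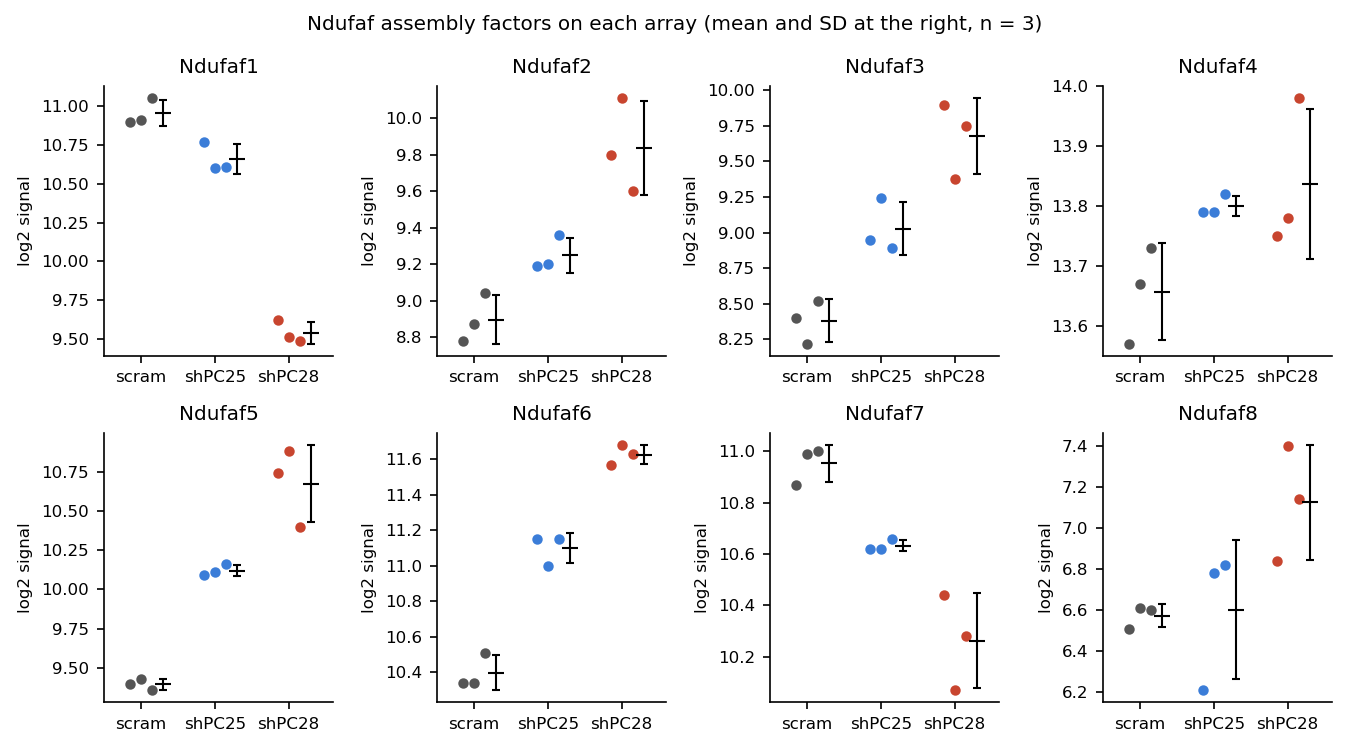
Log2 signal of the 8 Ndufaf assembly factors on each array (points) with the mean and SD of the 3 arrays of each group (black), each panel with its own axis that does not start at 0. Ndufaf1 and Ndufaf7 descend from scram to shPC25 to shPC28, Ndufaf2, Ndufaf3, Ndufaf5 and Ndufaf6 ascend without overlap, Ndufaf4 spans less than 0.5 log2 over all arrays, and Ndufaf8 overlaps between scram and shPC25.

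As a class, the assembly factors had a median change of 0.25 with shPC25 and 0.75 with shPC28, close to the 0.30 and 0.76 of the subunits, but with a range from -1.41 to 1.30 with shPC28, against -0.23 to 1.50 in the subunits. With shPC25, 3 of 8 rose (Ndufaf3, Ndufaf5 and Ndufaf6) and 0 fell, while 9.19% of all probe sets were called higher and 11.3% lower. The classes were not tested against each other.

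Assembly factors that do not carry the Ndufaf prefix were counted beside them. Of 13 measured, 3 rose and 3 fell with shPC28 (23.1% each, close to the 21.2% and 20.5% of all probe sets), with a median change of 0.08, and 2 rose and 2 fell with shPC25 (15.4% each, against 9.19% and 11.3%), with a median of 0.03. The following were named after their values were seen. Nubpl, which delivers iron-sulphur clusters, read 8.95, 8.78 and 8.85 in scram and 9.99, 10.30 and 10.13 with shPC28 (1.28 ± 0.12, limma adjusted p = 2.61e-05). Aifm1, the flavoprotein that aids import of respiratory chain proteins, read 13.16, 13.14 and 13.13 in scram, 12.63, 12.59 and 12.79 with shPC25 and 12.00, 11.96 and 12.10 with shPC28, and fell with both hairpins (-0.47 ± 0.09, limma adjusted p = 0.00778, and -1.12 ± 0.09, adjusted p = 1.65e-05). The others called with shPC28 were Timmdc1 (0.55) and Dmac1 (0.73), which were higher, and Tmem70 (-0.90) and Timm21 (-0.71), which were lower. Of the proteins that act together with Ndufaf1, Timmdc1 was among those called higher with shPC28. Those not called were Ecsit (-0.43, limma adjusted p = 0.0724), Acad9 (-0.04, adjusted p = 0.77), Tmem126b (0.08, adjusted p = 0.706) and Tmem186 (-0.21, adjusted p = 0.443).

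The 2 hairpins were then compared directly. Of the 38 subunits, 27 (71.1%) were higher with shPC28 than with shPC25 and 0 were lower, with a median difference of 0.46, while 11.8% of all probe sets were called higher and 14.5% lower, with a median of 0.04. The arrays of shPC28 lay above all shPC25 arrays for 32 subunits, as they did for 20% of all probe sets. Of the 8 assembly factors, 4 were higher (Ndufaf2, Ndufaf3, Ndufaf5 and Ndufaf6) and 2 lower (Ndufaf1, -1.12 ± 0.10, limma adjusted p = 7.21e-05, and Ndufaf7, -0.37 ± 0.11, adjusted p = 0.0368). The Ndufaf7 difference was lost when any of 7 of the 9 arrays was left out, with adjusted p of up to 0.0985. Pcx itself was lower with shPC25 than with shPC28, by 1.28 log2, so the hairpin with the lower Pcx signal had the smaller subunit changes.

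The largest differences between the hairpins were in Ndufb8 (1.17 ± 0.19, limma adjusted p = 0.00212), Ndufb10 (0.99 ± 0.10, adjusted p = 0.00017), Ndufv3 (0.89 ± 0.16, adjusted p = 0.00294) and Ndufb11 (0.89 ± 0.13, adjusted p = 0.00101). In the distal arm 10 of 11 subunits were higher with shPC28 than with shPC25, in the N module 7 of 10, in the Q module 4 of 5 and in the proximal arm 6 of 9. The share called higher was 11.8% of all probe sets and 21.8% of those with a mean of at least 10. Ndufa3 and Ndufa8, both of the proximal arm, were not called between the hairpins, with differences of 0.13 (95% interval -0.10 to 0.36) and 0.04 (-0.18 to 0.26). The weakest called differences were those of Ndufs3 (limma adjusted p = 0.0487) and Ndufc1 (adjusted p = 0.0421), which were lost whichever single array was left out, with adjusted p of up to 0.139 and 0.11.

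How much a subunit differed between the hairpins went with its signal in scram. Over the 38 subunits, the Spearman correlation of the mean scram signal with the difference between shPC28 and shPC25 was -0.78, against -0.14 over all probe sets; the scram arrays do not enter that difference. The points share arrays and probe chemistry, so the value is a description. The 19 subunits with the lower mean signal over all arrays (5.67 to 13.1) had a median change of 1.16 with shPC28 against scram, and 18 of them rose; the 19 with the higher mean signal (13.1 to 15.7) had a median of 0.63, and 16 rose. All probe sets within the same ranges of signal had medians of -0.16 and 0.16, so the order was the reverse. Of those probe sets, 29% in the lower range and 42.6% in the higher range were called higher with shPC28. Whether the range of the array has a part in this pattern was not tested.

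**Figure D3:**
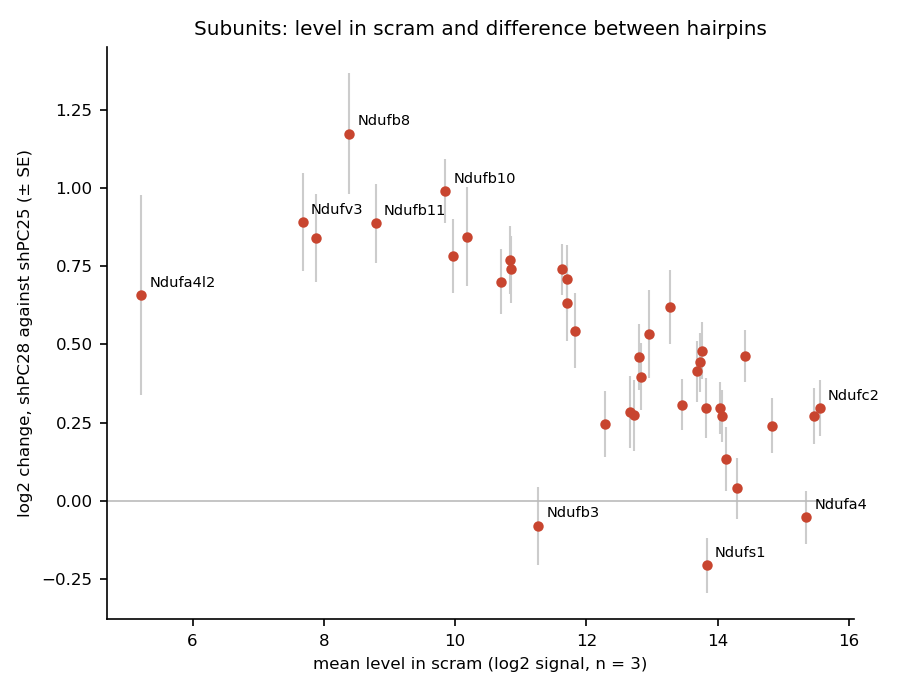
Difference between shPC28 and shPC25 for each of the 38 subunit genes (vertical axis, log2 change with its SE as bars) against the mean scram signal (horizontal axis, log2, n = 3). Genes with a scram signal under 12 mostly lie above 0.5, while Ndufs1, Ndufa4 and Ndufb3 lie below 0.

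The other complexes of oxidative phosphorylation were set beside complex I. With shPC28, 6 of 9 genes of complex III (median change 0.81), 9 of 10 of complex IV (0.68) and 12 of 15 of the ATP synthase (0.46) rose and 0 fell, while 1 of 4 genes of complex II, succinate dehydrogenase, rose (0.20), against 21.2% of all probe sets and 38.4% of those with a mean of at least 10. Rises with shPC28 were thus counted in complexes III and IV and the ATP synthase as they were in complex I. With shPC25, 5 of 9 genes of complex III, 4 of 10 of complex IV and 4 of 15 of the ATP synthase rose. The shares called higher were 9.19% of all probe sets and 20.3% of those with a mean of at least 10. In complex II (Sdhd), complex III (Uqcrh) and the ATP synthase (Atp5j) 1 gene each fell. In complex IV and among the 46 complex I genes 0 fell. The shares called lower were 11.3% of all probe sets and 17.3% of those with a mean of at least 10. No test compared the complexes with each other.

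**Figure D4:**
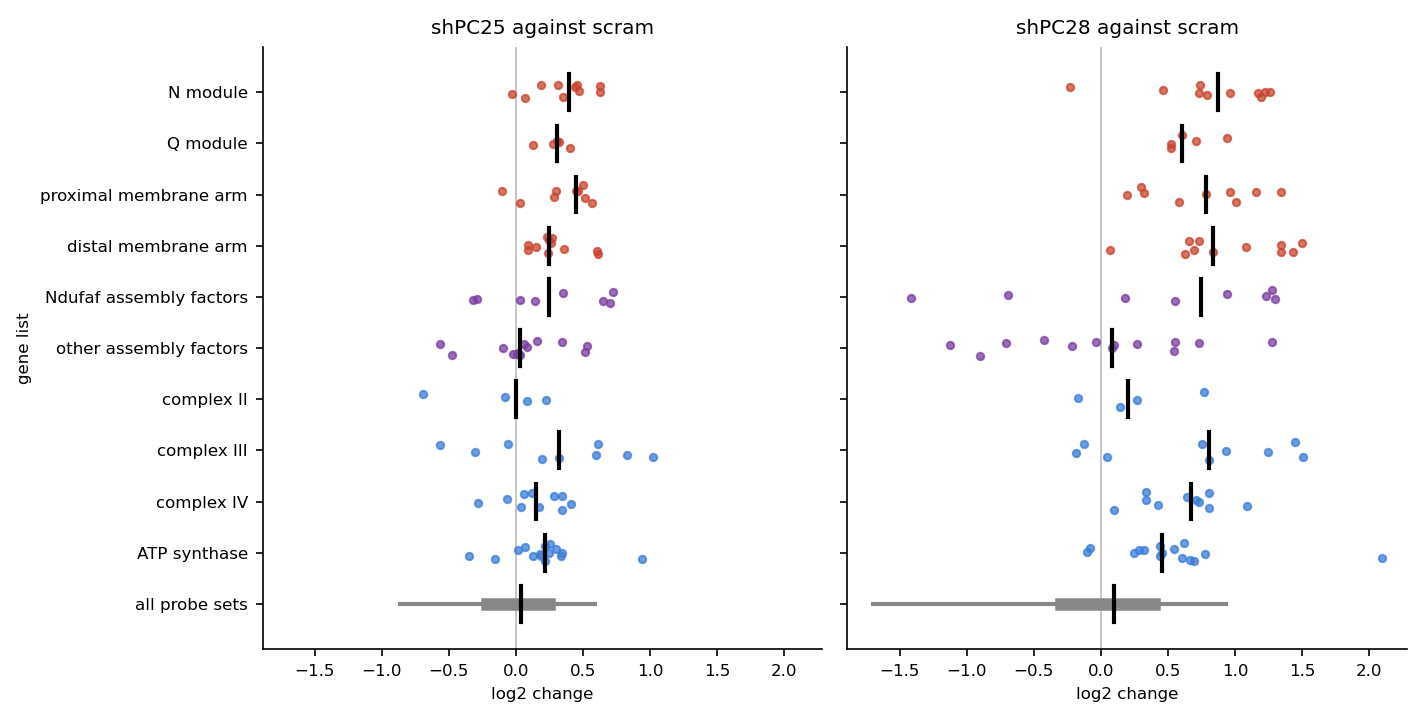
Log2 change of each gene (points) by part of complex I, assembly factors and other complexes, for shPC25 against scram (left) and shPC28 against scram (right), with the median of each list as a black line; the grey bar spans the middle of all probe sets (25th to 75th percentile) and the grey line the 5th to the 95th. The 4 parts of complex I have medians of 0.60 to 0.88 with shPC28, while the assembly factors spread on both sides of 0.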

How the data were processed

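The authors hybridised biotin-labelled cDNA from total RNA of 9 cell samples to Clariom S arrays. The deposited values are log2 signals, 1 per probe set, made by the authors with the Transcriptome Analysis Console; the log base was taken from the values (1.51 to 18.64), the genome build is not given in the sources used here, nor is the normalization algorithm. Values were used as deposited, with 0 missing values. The Entrez IDs of all 46 genes matched RefSeq, and 0 symbols changed.

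The 9 arrays were fitted together in limma 3.58.1 (R 4.3.3) with lmFit, using a mean for each group, followed by eBayes. Two-sided p-values were adjusted over 22206 probe sets by Benjamini-Hochberg. Errors of changes are the model's SE, and intervals are 95% and unadjusted. The number of arrays, 3 per group, limits the precision; the median SE of a log2 change was 0.16. The members and lists were chosen with earlier results of these data known. Values on every array were given for the core subunits, the assembly factors, the 5 highest and 5 lowest subunit changes with shPC28, Ndufa4, Ndufa4l2 and members called lower. Genes of other complexes were named if called against most of their list. Alternatives were filters on dim probe sets, other normalizations and centrings, other variance models, a replicate block and the omission of each array.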

Additional observations from a re-analysis of the deposited data

How the results depend on the processing

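Every call of a complex I gene kept its direction under the 19 alternative settings; the small changes of Ndufb3, Ndufc2 and Ndufaf4 with shPC28, which were not called, lay below 0 with olfactory centring. With shPC28 against scram, 36 of 41 calls passed in all of them, with shPC25 against scram 10 of 18, and between the hairpins 22 of 33. With shPC25, centring on array medians gave 23 subunits higher, with medians of 0.40 for subunits and 0.347 for assembly factors. The mean-variance trend called 28 genes, 24 of them subunits that were higher, and quantile normalization moved the assembly factor median to 0.417. The replicate numbers did not pair the arrays: deviations of arrays with the same number correlated at -0.184 to -0.139, and in 0 of 18 pairings with another group did an array match its own number best. With the replicate block, 11 genes were called with shPC25, 9 of them subunits that were higher.

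With shPC28 against scram, the medians of subunits and assembly factors were 0.865 and 0.85 with centring on array medians and 0.562 and 0.547 with centring on olfactory receptor probe sets, and quantile normalization moved the assembly factor median to 1.23. Between the hairpins, olfactory centring gave 0.335 and 0.398, and quantile normalization 0.66 for the assembly factors. Relative to the values as deposited, these centrings shifted the median of all probe sets by 0.10 and -0.20 with shPC28, and olfactory centring by -0.13 between the hairpins. Between the hairpins, olfactory centring left 18 of the 27 subunits called higher and called 1, Ndufs1, lower. The count of subunits higher was 20 with the replicate block, 22 with only the 2 groups compared and 32 with the mean-variance trend. The causes were not tested.

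When single arrays were left out, calls ranged from 12 to 19 with shPC25 (10 to 15 subunits higher), from 37 to 41 with shPC28 (31 to 34) and from 24 to 31 between the hairpins (20 to 25). The subunit medians were 0.262 to 0.331, 0.731 to 0.792 and 0.418 to 0.489, those of the assembly factors 0.198 to 0.305, 0.61 to 0.827 and 0.418 to 0.563, and the assembly factors higher 2 to 3, 4 to 5 and 3 to 4. Each gene had 1 probe set, so another rule for choosing probe sets was not run. With 3 arrays per group, the smallest change of a complex I gene called in the main fit was 0.27 log2 (Ndufc1 between the hairpins).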
